A study of Drosophila melanogaster with 4 samples.

Results

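The pair-rule genes studied here were eve, ftz, h, run, prd, opa, slp1 and slp2, 8 of the 13968 protein-coding genes on the fly's main chromosome arms. They were chosen as a named class of segmentation genes, and the rule uses no measured value. A peak was assigned to a member when its summit had the member's transcription start site (TSS) as the nearest protein-coding TSS, or when it lay in the member's body or within 2 kb upstream. Symbols and positions are those of the Ensembl annotation on the dm6 build, where h is listed as hry.

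The peaks come from ChIP-seq of the homeodomain factor Distal-less (Dll) in whole Drosophila melanogaster embryos of the strain Dll-GFP, aged 0 to 24 h. The flies carried an insertion that expresses Dll joined to eGFP, and sonicated chromatin of 200 to 800 bp was precipitated with an antibody against GFP, although the antibody field of the labels reads Dll. The 4 samples form 1 group of biological replicates with no second condition, so the comparisons are between the members, between replicates, and between the members and all genes. A 0 to 24 h collection mixes all embryonic stages and every tissue, so a peak cannot be assigned to a stage or a cell type. The control library was not analysed here. Sequencing depth is unknown, since the peak lists carry no counts of reads.

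Pair-rule genes encode transcription factors that read the broad domains of the gap proteins and turn them into periodic stripes along the early embryo. In the textbook account h, run and eve are set mainly by gap proteins through separate stripe enhancers, ftz, prd and the slp genes respond largely to other pair-rule proteins, and opa is expressed in a broad domain and acts on the timing of the others. Together they place the segment polarity genes, such as wg and en. Several are used again later, for example in the nervous system and in sensory organs.

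In the series-level list that the submitters call conservative, 3 of the 8 genes had an assigned summit (37.5%), against 5581 of the 13968 protein-coding genes (40.0%), so the members' share was near the background. These were h, prd and opa, with 1 summit each, all upstream of the TSS in a promoter. The share of promoter summits in the whole list was not counted. The genes eve, ftz, run, slp1 and slp2 had no assigned summit. The sequences around these 3 summits, and around the summit between slp1 and slp2 that is described further on, are shown because the results rest on these stretches. They were read from the RefSeq release 6 genome in the direction of the gene (the direction of slp2 for the last), up to 149 bp to each side of the summit and cut where an exon of a protein-coding gene begins. The h and opa sequences lie on the + strand, prd on the - strand and slp2 on the + strand, and capitals mark 1 of 6 searched words.

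h, chr3L:8675495-8675758: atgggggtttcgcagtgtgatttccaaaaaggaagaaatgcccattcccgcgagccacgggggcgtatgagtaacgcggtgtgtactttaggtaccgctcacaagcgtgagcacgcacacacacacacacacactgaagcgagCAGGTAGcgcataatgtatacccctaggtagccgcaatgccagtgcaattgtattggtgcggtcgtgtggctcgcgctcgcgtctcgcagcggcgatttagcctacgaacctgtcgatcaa
opa, chr3R:4852435-4852733: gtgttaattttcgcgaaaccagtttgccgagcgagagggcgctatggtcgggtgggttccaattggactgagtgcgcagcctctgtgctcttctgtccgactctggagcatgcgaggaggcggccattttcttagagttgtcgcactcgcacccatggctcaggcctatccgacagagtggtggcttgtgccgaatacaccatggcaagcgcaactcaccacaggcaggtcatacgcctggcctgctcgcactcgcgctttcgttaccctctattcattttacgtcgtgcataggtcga
prd, chr2L:12085828-12086035: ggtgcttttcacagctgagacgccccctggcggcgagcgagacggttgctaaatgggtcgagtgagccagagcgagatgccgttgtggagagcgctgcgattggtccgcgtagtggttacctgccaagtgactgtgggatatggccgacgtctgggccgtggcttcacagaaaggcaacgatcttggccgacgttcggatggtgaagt
slp2, chr2L:3832311-3832609: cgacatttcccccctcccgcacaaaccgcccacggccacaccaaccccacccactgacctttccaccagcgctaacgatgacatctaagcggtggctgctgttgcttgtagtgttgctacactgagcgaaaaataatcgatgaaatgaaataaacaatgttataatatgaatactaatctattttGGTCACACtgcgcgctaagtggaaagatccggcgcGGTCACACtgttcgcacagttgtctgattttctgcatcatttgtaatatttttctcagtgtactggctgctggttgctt

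The words searched on both strands were TATCGATA (bound by DREF), CGATAT (BEAF-32, which overlaps some TATCGATA), GAGAGAG (the factor encoded by Trl), GGTCACAC (M1BP), TAATTA (a core of homeodomain sites) and CAGGTAG (Zelda, the activator of the early zygotic genome). In the window of 101 bp centred on the summit, the h peak held CAGGTAG, whose centre lay 3 bp upstream of the summit. That word was in 0.442% of all 5203 conservative summit windows and in 0.644% of windows of the same length centred 100 bp upstream of each protein-coding gene's start. The opa and prd windows held none of the 6 words. The slp2 sequence held GGTCACAC at 2 places, centred 39.5 bp and 74.5 bp downstream of the summit, the nearer of them inside the window of 101 bp, where 2.73% of conservative summits held it. TAATTA was in none of the 4 printed sequences, of 264 bp at h, 208 bp at prd and 299 bp at opa and slp2. In uncut windows of 299 bp it was at 18.8% of all conservative summits, which do not include the slp2 summit. A match is a description of the letters and shows no binding site.

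The promoters of the class were rich in G and C. In the 299 bp around its summit the G+C content was 55.9% at h, 56.5% at opa and 59.5% at prd, against a median of 40.1% over the 5203 conservative peaks (quartiles 34.8% and 46.2%). The h window was richer than 96.6% of conservative peaks, opa richer than 97.2% and prd richer than 99.1%. The same held for members with no conservative summit. In 299 bp centred 100 bp upstream of the gene's start, eve had a G+C content of 64.5%, above 99.96% of all promoters, while run had 56.9% and ftz 55.9%. The lowest values were 50.8% for slp1 and 48.2% for slp2, which still lay above 90.9% and 85.2% of promoters, whose median was 37.8%. In these promoter windows h had 56.2%, prd 59.2% and opa 53.5%, inside the range of the members without a conservative summit. The part of base composition in the peak calls was not tested.

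**Figure D1:**
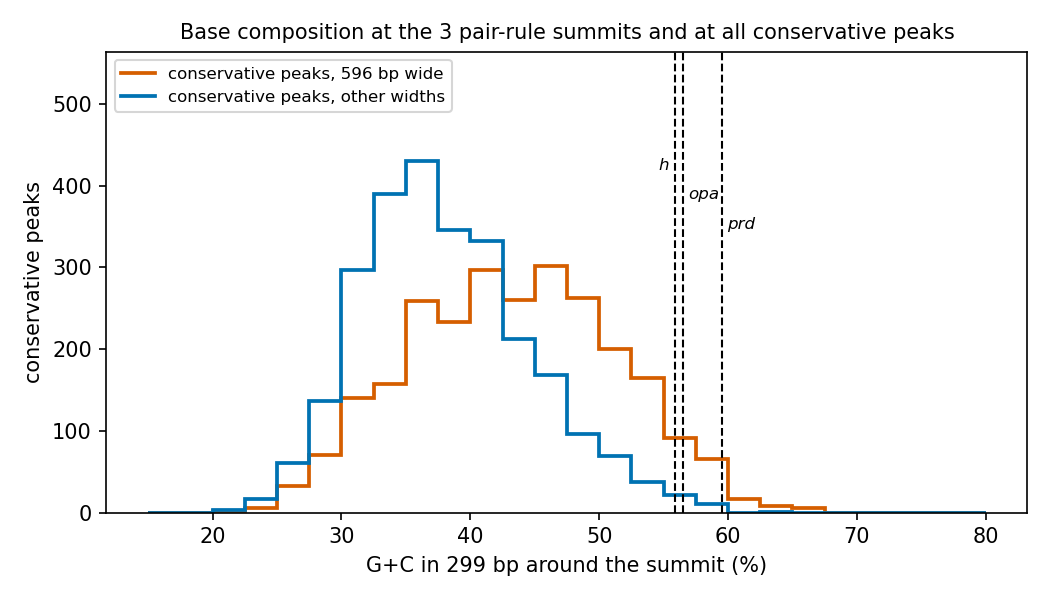
The share of G and C bases in the 299 bp around the summit (x axis, percent) is plotted for the 3 member summits as dashed lines and for all conservative peaks as histograms (y axis, number of peaks), split by peak width. The h, opa and prd lines lie between 55.9% and 59.5%, at the upper end of both distributions.

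The gene h encodes a basic helix-loop-helix repressor and lies on 3L from 8675759 to 8679253 (+ strand). Its conservative peak covered 8675346 to 8675941, with the summit 115 bp upstream of the TSS. Ranked by the authors' signal, it stood at 61.6% from the top of the conservative list, which held 5203 peaks. The own ranked lists were far longer, with 43859, 39011, 44390 and 39755 candidates in replicates 1 to 4. The own thresholded lists were 8.23%, 9.25%, 5.68% and 7.25% as long. Percentages from ranked and thresholded lists are thus not on the same scale. In the own ranked lists, which also hold candidates that failed the threshold, the strongest candidate over this interval stood at 6.33% from the top in replicate 1, 13.2% in replicate 2, 11.9% in replicate 3 and 12.5% in replicate 4 (mean 11.0% ± 3.13, SD, n = 4). Every peak in the replicates' own thresholded lists had a global irreproducible discovery rate (IDR) of 0.01 or lower, a -log10 value of at least 2, and a candidate below that did not enter. The h candidate reached 2.63 in replicate 1 and only 0.150, 0.106 and 0.114 in replicates 2, 3 and 4, so it entered the thresholded list of replicate 1 alone.

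The gene opa encodes a zinc finger protein of the Zic family and lies on 3R from 4852813 to 4869979 (+ strand). Its conservative peak covered 4852286 to 4852881, with the summit 229 bp upstream of the TSS and a rank of 64.7% from the top. In the own ranked lists the candidate there stood at 13.4%, 11.0%, 7.96% and 9.10% from the top in replicates 1 to 4 (mean 10.4% ± 2.40, SD, n = 4). This was the smallest spread of the 3 conservative sites, yet opa was in none of the 4 thresholded own lists. Its -log10 IDR was 1.37, 1.90, 0.143 and 0.949 in replicates 1 to 4, all under the threshold of 2.

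The gene prd encodes a protein with a paired domain and a homeodomain and lies on 2L from 12082995 to 12085827 (- strand). Its conservative peak covered 12085588 to 12086183, with the summit 59 bp upstream of the TSS and a rank of 69.2% from the top. The summit also lay in an annotated non-coding transcript on the other strand, asRNA:CR44592 (12085649 to 12086413), and the peak lists do not tell these promoters apart. In the own ranked lists the candidate stood at 12.5%, 11.2%, 6.40% and 18.6% from the top in replicates 1 to 4 (mean 12.2% ± 5.04, SD, n = 4). Its -log10 IDR passed 2 in replicate 3 alone, at 2.03, and was 1.15, 0.146 and 0.171 in replicates 1, 2 and 4.

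At these 3 sites the summit of each replicate was that of its strongest candidate overlapping the conservative peak, which limits how far it can lie from it. No such distance was taken over other conservative peaks. Relative to the conservative summit, the own summits lay from 60 bp below to 41 bp above it in coordinate at h, from 95 bp below to 51 bp above at opa, and from 72 bp below to 57 bp above at prd. All 3 conservative peaks had a width of exactly 596 bp, as did 2574 of the 5203 peaks (49.5%). Peaks of this width had a median rank of 70.6% from the top and overlapped a peak of all 4 own lists in 9.09% of cases, against 25.3% and 85.4% for peaks of other widths. Over the whole conservative list, 47.7% of peaks overlapped a peak in all 4 own lists and 83.4% overlapped one in at least 1. For the members these counts were 0 of 3 and 2 of 3. Among the 392 conservative peaks whose rank lay between those of h and prd, 28.3% were in no own list, 34.7% in 1 and 13.5% in all 4. The 3 sites all had a candidate in the 4 ranked lists, as did 96.7% of conservative peaks.

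The genes slp1 and slp2 encode related forkhead factors and lie 11165 bp apart, start to start, on 2L (3825675 to 3827099 and 3836840 to 3839185, both + strand). Neither had a conservative summit. The interval between them held a summit 4380 bp upstream of the slp2 TSS, in a peak from 3832162 to 3832757, which was in 4 of the 6 other thresholded series-level lists. It stood at 13.9%, 7.39%, 9.19% and 11.5% from the top of the ranked lists of replicates 1 to 4 (mean 10.48% ± 2.81, SD, n = 4). Its -log10 IDR was 2.46 in replicate 2, whose thresholded list held it, and 0.154, 0.161 and 0.111 in replicates 1, 3 and 4. The mean ranks of this intergenic site and of the h, opa and prd promoters differed by less than 1 SD. At the slp2 promoter itself a candidate stood at 34.98%, 16.4%, 20.2% and 11.5% from the top in replicates 1 to 4. At the slp1 promoter, within 500 bp of the TSS, a candidate was listed in replicate 2 alone, at 22.2%.

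Across the 4 replicates' own thresholded lists, the members with a summit were h in replicate 1, slp2 in replicate 2, prd in replicate 3 and none in replicate 4. Within these thresholded lists h stood at 71.7% from the top, slp2 at 73.0% and prd at 87.0%. No member was in more than 1 own list, and the mean was 0.75 ± 0.50 members per list (SD, n = 4). Over all genes, 30.5% had a conservative summit whose peak overlapped at least 2 own lists. The share of genes with a summit of their own in more than 1 own list was not counted. The share of all protein-coding genes with a summit was 32.1% in replicate 1, 33.1% in replicate 2, 25.3% in replicate 3 and 27.8% in replicate 4. The files also hold 6 other thresholded series-level lists, made from the same 4 samples, and how they differ is not given in their notes. Among these, h, opa and slp2 were each in 4 and prd was in 3, while eve, ftz, run and slp1 were in none. Each of these 6 lists held summits of 2 or 3 members. The share of all protein-coding genes with a summit ranged from 32.3% in the list of 4009 peaks to 45.1% in that of 6220 peaks. The longest of these lists, with 6220 peaks, held 5 summits of h, 3 of slp2 and 1 of prd but none of opa. Overlapping peaks count separately here. At h, 8675346 to 8675941 overlapped 8675545 to 8676140, and 8688627 to 8689222 overlapped 8688843 to 8689438. At slp2, 3832162 to 3832757 overlapped 3832364 to 3832959.

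**Figure D2:**
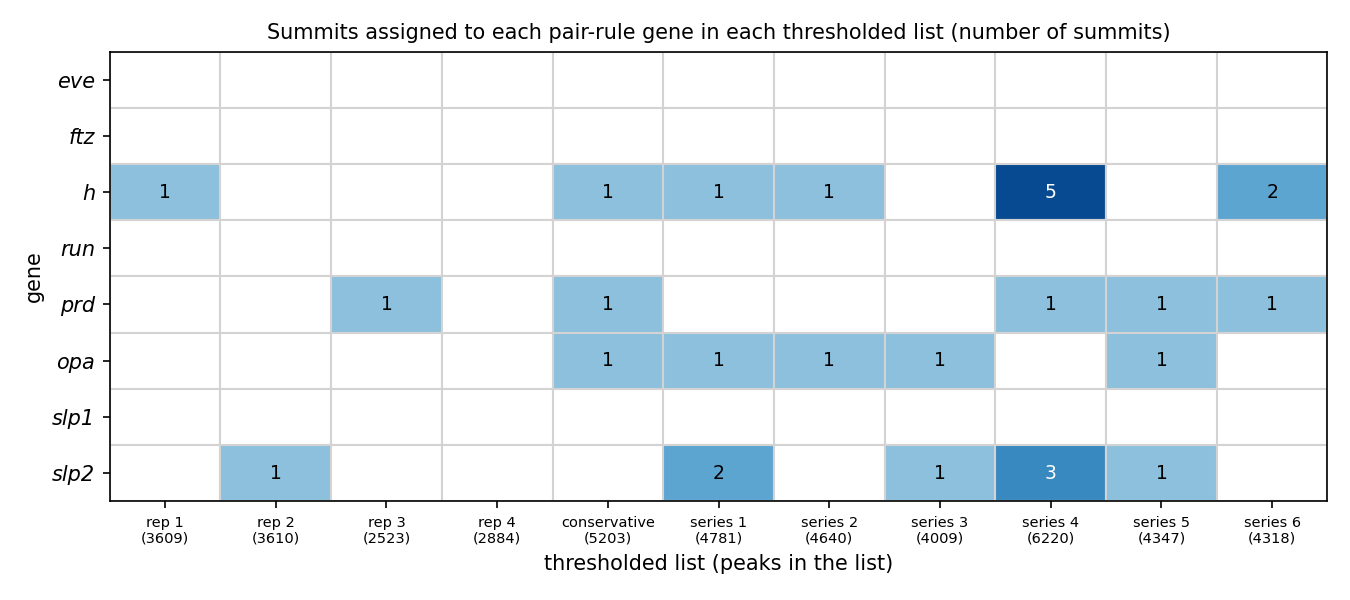
Each row is a pair-rule gene and each column a thresholded list, from the 4 replicates' own lists (rep) through the conservative list to the 6 other series-level lists (series), with the number of peaks of the list in brackets. The number in a cell counts the summits assigned to the gene. The genes eve, ftz, run and slp1 have no summit in any of the 11 lists, and no column of a single replicate holds more than 1 member.

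The gene h had the most candidates of the class, 19.5 per replicate on average, against 2 at eve. The list of 6220 peaks placed summits 12970 bp and 20754 bp downstream of its nearest TSS, both intergenic. The site at 12970 bp stood at 23.2%, 16.0%, 14.7% and 11.4% from the top of the ranked lists of replicates 1 to 4, and the site at 20754 bp at 28.2%, 22.6%, 7.33% and 20.3%. Neither passed the threshold of any replicate. In replicate 3 the strongest candidate of h was that at 20754 bp, and in replicate 4 it lay 3189 bp upstream of the TSS, at 7.85% from the top.

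The gene run encodes the founding protein of the Runt family and lies on X from 20690670 to 20697321 (+ strand). Its strongest candidate stood at 11.3%, 17.3%, 29.8% and 21.1% from the top in replicates 1 to 4 (mean 19.9% ± 7.76, SD, n = 4). In replicates 1, 2 and 4 this candidate lay 102 to 373 bp upstream of the inner TSS, and in replicate 3 it lay 167 bp downstream of the outer one. Both starts had a candidate in all 4 replicates, with mean ranks of 22.6% ± 12.7 at the inner and 29.6% ± 5.57 at the outer start (SD, n = 4).

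The gene ftz encodes a homeodomain protein and lies on 3R from 6864324 to 6866244 (+ strand), inside the Antennapedia complex. Its strongest candidate stood at 19.7%, 27.8%, 11.9% and 12.7% from the top in replicates 1 to 4 (mean 18.0% ± 7.41, SD, n = 4). These were 4 different places: 17554 bp downstream of the TSS in replicate 1, 362 bp upstream in replicate 2, 29376 bp downstream in replicate 3 and 2459 bp upstream in replicate 4. Replicate 2 alone listed a candidate within 500 bp of the ftz TSS.

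The gene eve encodes a homeodomain repressor and lies on 2R from 9979319 to 9980795 (+ strand). It had the weakest candidates of the class, at 53.9%, 34.2%, 47.3% and 48.5% from the top in replicates 1 to 4 (mean 46.0% ± 8.36, SD, n = 4). In replicates 2 and 3 the strongest lay at the promoter, 213 and 203 bp upstream of the TSS, and in replicates 1 and 4 it lay 1950 and 3703 bp upstream. No place near eve had a candidate in all 4 replicates. At 8311 bp beyond its 3' end stood the promoter peak of TER94, which encodes an AAA ATPase, at 5.94% from the top of the conservative list and in all 4 own lists.

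In order of mean rank, the strongest candidates were those of h (8.67% ± 3.07), slp2 (10.3% ± 2.91), opa (10.4% ± 2.40), prd (12.2% ± 5.04), ftz (18.0% ± 7.41), run (19.9% ± 7.76), slp1 (33.4% ± 14.96) and eve (46.0% ± 8.36; SD, n = 4 for each). Neighbours from h to prd differed by less than their SD, and so did ftz and run. Every eve candidate ranked lower than every one of h, slp2, opa, prd, ftz and run. The median over the 8 members averaged 13.7% ± 2.45 over the replicates, against 12.2% ± 0.771 for the medians over all genes with a candidate (SD, n = 4). The members' median was nearer the top than that of all genes in replicate 3 and farther from it in replicates 1, 2 and 4. These medians are not alike, since a strongest candidate is taken from all those assigned and the members' surroundings were long. With candidates limited to 500 bp from the TSS, the medians averaged 15.2% for members and 13.4% ± 0.833 for all genes (SD, n = 4). Genes without such a candidate were left out. All 8 members had a candidate in every replicate, as did 10005 of the 13968 genes (71.6%).

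**Figure D3:**
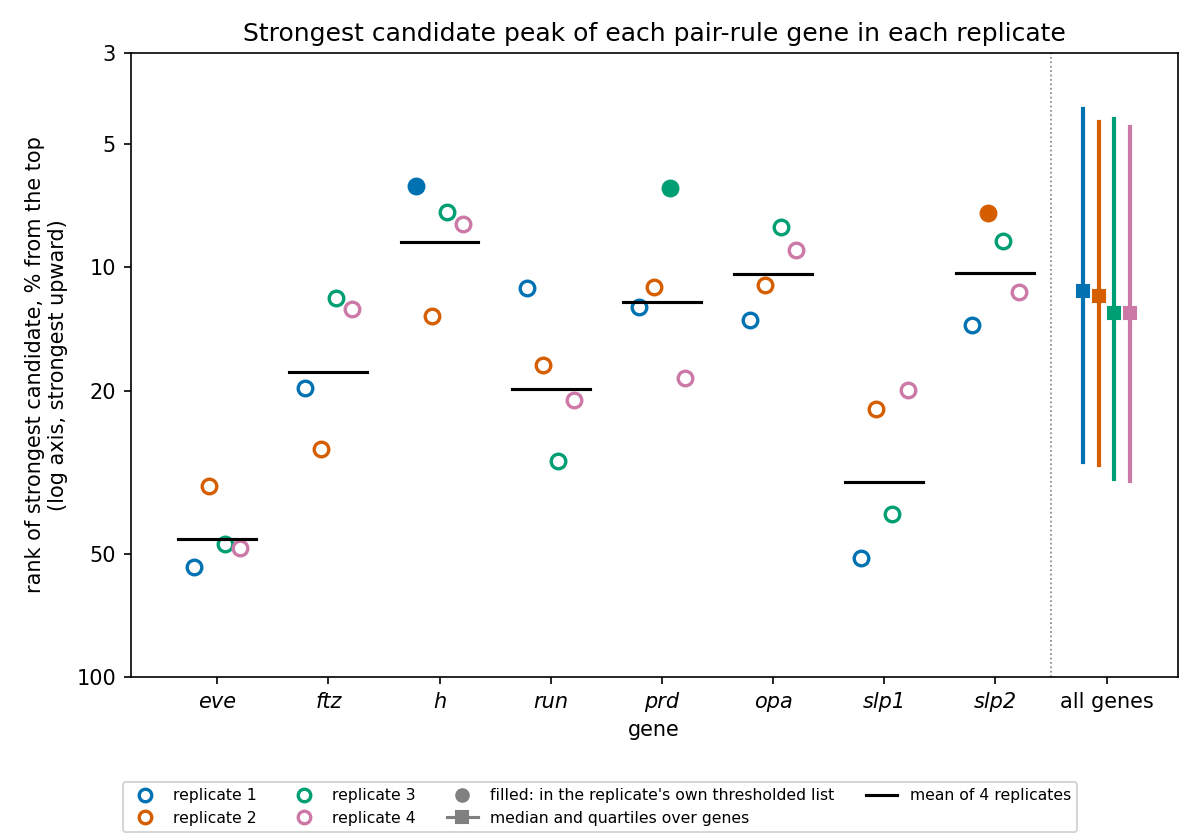
The rank of each gene's strongest candidate peak in each replicate's ranked list is plotted on a log axis (percent from the top, strongest upward), with filled points where the candidate entered that replicate's thresholded list. Bars give the mean of 4 replicates, and the squares at right give the median over all genes with lines for the quartiles. The filled points are h in replicate 1, prd in replicate 3 and slp2 in replicate 2, and eve lies lowest.

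The stretches of chromosome nearest to the members' TSSs were long, 179053 bp in all, from 8086 bp for prd to 41430 bp for ftz, against a median of 4334 bp for all genes. They held 53, 77, 65 and 68 candidates in replicates 1 to 4, or 3.67 ± 0.554 per 10 kb, against 3.02 ± 0.2001 over all arms (SD, n = 4). The members were denser in replicates 2, 3 and 4 and sparser in replicate 1. Between members the mean density was 5.497 per 10 kb at h, 4.55 at opa, 4.48 at slp1, 4.33 at prd, 3.78 at slp2, 3.11 at run, 2.25 at eve and 1.93 at ftz. When candidates of all replicates were joined at gaps of up to 150 bp, the members had 161 places, of which 17 (10.6%) were in all 4 replicates and 100 in a single one. Over the genome 8.77% of 96523 places were in all 4. The 17 places were spread over h with 6, opa with 3, slp2 with 3, run with 2, slp1 with 2 and prd with 1, and eve and ftz had none. The surroundings of ftz were the longest of the class, yet none of its 21 places, joined in this way, recurred in all 4 replicates. The nearest to it lay downstream of ftz, where replicates 1, 2 and 4 had candidates at 17.554, 17.539 and 17.437 kb. Replicate 3 had one at 17.769 kb and replicate 4 another at 17.766 kb, beyond the 150 bp that joined neighbours. The lack of a shared place at ftz thus rests on that joining distance, and overlap of these candidate intervals was not examined.

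**Figure D4:**
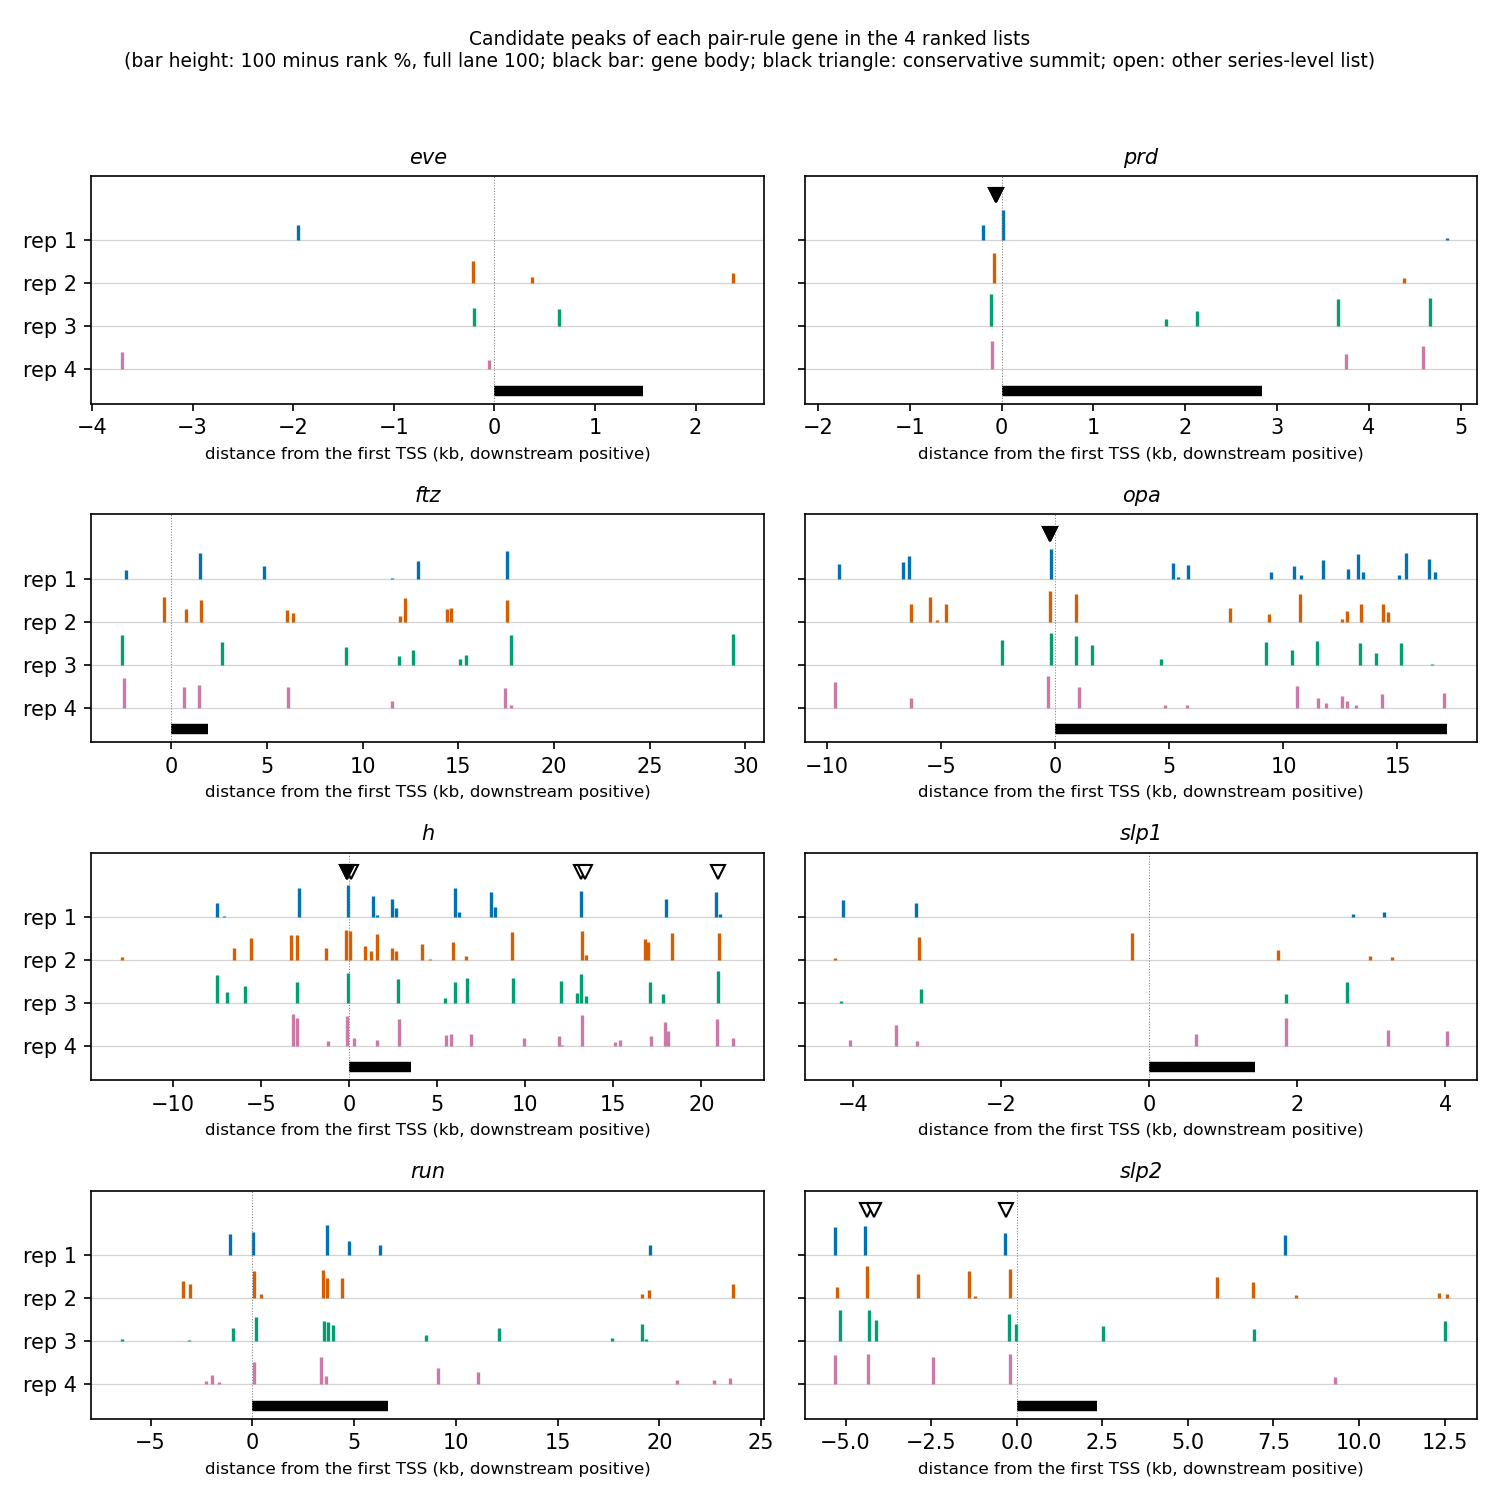
For each gene, the candidate peaks assigned to it are drawn by distance from its outermost TSS (x axis, kb, downstream positive) in 1 lane per replicate, where the bar height is 100 minus the rank in percent. Black bars mark the gene body, black triangles conservative summits and open triangles summits of the other series-level lists. The lanes line up at the promoters of h, prd and opa and upstream of slp2. No place at eve or ftz is shared by all 4 lanes when summits are joined at gaps of up to 150 bp.

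The surroundings of the class were sparse in conservative summits. Within 20 kb of the gene body there were 4 such summits at eve, 3 at prd, 1 at each of h, opa and slp1, and none at ftz, run and slp2, a median of 1 against 3 over all genes (quartiles 1 and 5). Besides TER94 near eve, the strongest were the promoter peaks of Rab3-GAP near prd, at 27.5% from the top, and of the uncharacterised gene CG3407 near slp1, at 26.3%, both in all 4 own lists.

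The members were set beside 31 other genes of the segmentation hierarchy. Of these, 15 (48.4%) had an assigned conservative summit, against 40.0% of all genes. In 13 of the 15 the strongest lay at a promoter, though for nos the nearest TSS was that of CG11779. The share of promoter summits among all conservative peaks was not counted. By list, the 15 genes were 1 of 6 gap genes and 6 of 10 segment polarity genes. The rest were 6 of 9 cofactors and further genes with a pair-rule role, and 2 of 6 maternal and early regulators. In the own lists of replicates 1 to 4, a summit was assigned to 1, 1, 1 and 0 of the 8 members, and to 10, 11, 10 and 9 of the 31 other genes. The shares over all genes were 32.1%, 33.1%, 25.3% and 27.8%, so the counts of the 31 genes were near the background. None of the 3 member peaks overlapped all 4 own lists, and the strongest peaks of 8 of the 15 other genes did, a share near the 47.7% of all conservative peaks. No test was made of these differences.

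Among partners of the members, ftz-f1, which encodes the nuclear receptor that acts with Ftz, had a promoter peak at 27.4% from the top. The gene gro, which encodes the co-repressor of Hairy, had one at 28.4%. Bgb, which encodes a binding partner of Runt, had one at 17.7%. Each of these 3 peaks overlapped all 4 own lists, while h was in 1 own list and ftz and run in none. The promoter peak of lilli stood at 7.25% and overlapped all 4, that of Ten-m at 74.98% overlapped 1, and that of the pair-rule gene odd, a zinc finger repressor, at 71.1% overlapped none.

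Among segment polarity genes, the promoter peaks of smo, the Hedgehog signal transducer, at 15.8% from the top, and of ptc, the Hedgehog receptor, at 48.1% overlapped all 4 own lists. The intronic peak of ci, the Hedgehog pathway's transcription factor, at 58.1% overlapped 2, and the promoter peak of gsb-n, a paired-domain gene, at 61.3% overlapped 1. The promoter peaks of en, at 78.3%, and of arm, which encodes beta-catenin, at 71.98% overlapped none. Of the rest, kni had an intergenic peak 11317 bp from its TSS at 50.05% from the top, and bcd a promoter peak at 33.6%. The strongest peak assigned to nos, at 1.86%, lay 68 bp from the TSS of CG11779, the nearest TSS. It was assigned to nos only through the body or 2 kb upstream.

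For h, prd and slp2, which were each in 1 thresholded own list, the genes with the most similar ranks were sought among 10005 genes that had a candidate in all 4 ranked lists. By mean absolute difference in rank over the 4 replicates, the nearest to h were ClC-b (0.163 percentage points), cN-IIIB (0.540) and rdx (0.555). The nearest to prd were mRpL38 and CG11674, which had identical ranks (0.394), and Fcp3C (0.606). The nearest to slp2 were puml and TTLL12, which had identical ranks (0.536), and CG18170 (0.685).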

How the data were processed

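Dll-GFP ChIP-seq peaks came from 4 samples of 1 group. Per the labels, peaks are on dm6; the sources used here name neither aligner nor peak caller. The signal is the authors' deposited peak height, used here just for ranks inside each list, and the −log10 column of ranked lists holds the authors' deposited −log10 of the global IDR. The conservative list derives from all 4 samples per the deposited notes. Another 14 signal columns of series-level ranked lists and 8 of own ranked lists name no sample and were not used. Lists hold no read counts, so depth is unknown and no interval is given.

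Genes came from Ensembl release 115 (BDGP6.54), arms 2L to Y; no peak ended beyond its RefSeq chromosome. Each deposited row counted as a peak. A promoter spanned the 500 bp before a TSS and the 100 bp after it, and overlap meant at least 1 bp. With 1 group there was no test, only counts, ranks and SDs over replicates. Members and lists were chosen with earlier results of these data known. All 8 members were named, with the owners of the strongest peaks within 20 kb, genes of the other lists with a conservative summit, and the 3 genes closest in rank to each member in an own list. Assignment was tested on simulated data. Python 3.11.15, NumPy 2.4.6, pandas 2.3.3 and matplotlib 3.10.9 were used.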

Additional observations from a re-analysis of the deposited data

How the results depend on the processing

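The count of 3 members with a conservative summit was 2 or 3 in the 6 other thresholded series-level lists, where 32.3% to 45.1% of all genes had a summit. It was 3 with the nearest TSS alone, with body or 2 kb upstream alone, with the nearest TSS of any gene type and with 1 summit per merged region. The shares of all genes under these choices, in the same order, were 27.7%, 39.1%, 39.4% and 39.8%. It was 0 in the upper 50% of peaks by signal, where 27.5% of all genes had a summit. Among peaks with support from 2 or more own lists it was 0, against 30.5% of all genes, and with support from all 4 it was 0, against 21.8%. Leaving out each replicate in turn meant keeping conservative peaks supported by at least 2 of the remaining own lists, and no list was rebuilt. That count (from 0 to 0) was fixed in advance, since no member peak was in more than 1 own list. The count of members was 5 when any summit within 20 kb counted, where 77.9% of all genes had one. The 3 summits became 9 in the list of 6220 peaks, with overlapping peaks counted separately. They became 0 under the same stricter choices (from 0 to 0 without each replicate, fixed in the same way). The 15 other segmentation genes became 9 in the list of 4009 peaks, 8 in the upper 50% by signal and 29 within 20 kb. They became 9 with support in at least 2 own lists, 8 with support in all 4, and from 8 to 9 without each replicate. The last range carries the same filter for support from at least 2 of the remaining own lists, so it is no plain removal of a replicate. Member summits seen in an own list numbered from 1 to 2 without each replicate: 1 without replicate 1, which alone held h, and 1 without replicate 3, which alone held prd. The members' median rank was 16.5% with 1 summit per merged region against 13.7%, and from 13% to 14.8% without each replicate. Merging left fewer candidates, and the percent was taken anew over those left. No value for all genes was computed under that choice. Members per own list averaged from 0.667 to 1 without each replicate, and 0.5 with body or 2 kb upstream alone, against 0.75. With the candidate restricted to 500 bp from the TSS, the mean rank of ftz was 27.8% (1 replicate) and that of slp2 20.8%, against 18.0% and 10.3%. In all, 90 of the alternative values were the same within the replicate spread or 1.5 times the count, and 30 moved. For ranks and members per own list, a mean without 1 replicate cannot lie 1 SD or more from the mean of all 4. Its label of same was thus fixed in advance and does not measure stability. The cause of the moves was not tested. Alternatives for the other segmentation genes, and leaving out a replicate for the counts of summits and of member summits in own lists, were chosen after seeing the data. No paired analysis was possible because there is 1 group. Without read counts, a gene with no called summit cannot be told from one whose signal the depth could not show.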
